A study of Mus musculus with 9 samples.

Results

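The 6 oocyte libraries made from stressed mice, with or without the herbal decoction KYZY (Kai Yu Zhong Yu), were set against the 3 libraries from unstressed control mice to find which transcript differences from control were present in both stressed groups. They were taken by their treatment labels and make up 6 of the 9 libraries of the series: 3 labelled stress, 3 labelled stress plus herbal medicine, and 3 labelled control as the reference. All groups were female ICR mice, an outbred stock, with a labelled age of 4-5 weeks. The stress group received a daily stressor (tail pinch, cold swim, food or water deprivation, wet bedding, continuous light or restraint) for 6 weeks. The KYZY group received the same stressors for 6 weeks and then 0.1 ml of the decoction by gavage each day for 4 weeks, and the control group received neither. All mice were superovulated with PMSG and then hCG at 7.5 IU each, and 16 hours after hCG metaphase II oocytes were collected from the oviduct and stripped of cumulus cells with 100 IU/ml hyaluronidase for 10 min. Each library holds 15 oocytes from 1 mouse, amplified with SMART-Seq v4 and fragmented with Tn5.

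The labels name no stressed group given gavage without the recipe and no control group kept for the additional 4 weeks. Sequencing on a NovaSeq instrument is described for the KYZY libraries only, while a TruSeq cluster kit is described for the stress and control libraries. In the KYZY group, the recipe, the added time and the sequencing run cannot be told apart, so a difference present in stress and missing in KYZY has no assigned source. The p-values reported here measure the spread between 3 mice per group.

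The fully grown oocyte is nearly silent in transcription, and the metaphase II egg carries a store of maternal mRNA that supports fertilization and the first cleavages. Differences in transcript level at this stage therefore reflect both earlier transcription and the rate at which stored mRNA is polyadenylated, translated and degraded during maturation. Chronic unpredictable stress in mice is known for raising circulating glucocorticoids, which act through the receptor encoded by Nr3c1. Levels are given as CPM, the customary unit of a count relative to its library, here with library totals scaled by TMM, and log2 fold changes are stress-exposed minus control unless another pair is named.

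Total counts lay between 46324094 and 106990821 in the stress-exposed libraries and between 68826061 and 82214112 in the control libraries. The preribosomal RNA gene Rn45s took 5.26% to 11.8% of the counts of a library. All 10 oocyte-specific transcripts used as an identity check (among them Gdf9, Zp3 and Mos) were above 0 in every library, with summed levels of 16382 to 29722 CPM in stress-exposed and 18173 to 26849 CPM in control oocytes. On the first principal component, which held 47.4% of the variance, stress 3, KYZY 2, KYZY 3 and control 3 lay at 11.4 to 51.6 and the other 5 libraries at -31.9 to -23.1. The mean log2(CPM + 1) of 33 cumulus and granulosa cell markers was 2.09 to 2.94 in those 4 libraries and 0.977 to 1.28 in the others. Summed over the 41 markers in the tables, the level was 753 to 1884 CPM (median 1099) in stress-exposed libraries and 676 to 966 CPM (median 793) in control libraries. A large part of each sum was 1 gene, Serpine2, at 383 to 970 CPM in stress-exposed and 359 to 494 CPM in control libraries. Tnfaip6, which marks expanded cumulus cells, was at 0 in stress 1, stress 2, KYZY 1, control 1 and control 2, and at 1.94 to 16.5 CPM in the 4 libraries. Star and Cyp11a1 did not set stress 3 apart. Star was at 0.373 CPM in stress 3, below stress 2 (3.54 CPM) and control 2 (2.07 CPM). Cyp11a1 was at 14.7 CPM in stress 3 and 10.6 CPM in stress 2, against 228 CPM in control 3, 165 CPM in KYZY 2 and 428 CPM in KYZY 3. Comparisons were also made without these 4 libraries and without control 3. Medians and fold changes from these comparisons are given beside some genes and lists, not for all that moved. Calls are given with those comparisons. For named genes without the 4 libraries only fold changes are given, as 1 KYZY library is left.

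No gene differed between all stress-exposed and control oocytes after adjustment. With edgeR's quasi-likelihood test, 0 of 13890 genes (0%) passed a Benjamini-Hochberg adjusted p of 0.05, and the smallest adjusted p was 0.99955. At an unadjusted p under 0.05, 340 genes were counted, 119 higher (0.857% of the genes tested) and 221 lower (1.59%) in stress-exposed oocytes. Set against the same 3 control libraries, stress alone gave 0 called genes (0%), with 153 higher (1.1%) and 220 lower (1.58%) at an unadjusted p under 0.05. Stress plus KYZY also gave 0 called genes (0%), with 121 higher (0.871%) and 259 lower (1.86%) at that level. A gene was counted as different in both groups when the fold changes had the same sign and the larger of the p-values was adjusted and passed. This count was 0 (0%), with 42 higher (0.302%) and 24 lower (0.173%) genes before adjustment. These comparisons share their control libraries, so a shared count also holds whatever was particular to those 3 mice. Of these 66 genes, 10 were at 0 in all 3 control libraries. For the difference between KYZY and stress, 1 of them had an unadjusted p under 0.05, beside 553 of the 13890 genes tested (3.98%). The 66 were chosen for the same sign and a small p in both groups, so this count is no test of persistence.

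The Wald test of DESeq2 called 6 of 13808 genes (0.0435%) on the same counts. They were Dgka and Grb7 among higher genes, and Stra6l, Adcyap1, Flrt2 and Rhox8 among lower genes. Flrt2 and Rhox8 were at 0 in 6 of the 9 libraries each and Adcyap1 in 5. Adcyap1, which encodes a neuropeptide, was at 0, 0 and 0 CPM in stress, at 0.237, 0.117 and 2.37 CPM in KYZY and at 0, 0 and 1.42 CPM in control oocytes, and its libraries overlapped. Dgka, a diacylglycerol kinase, was at 0.122 to 0.470 CPM in the 6 stress-exposed libraries and at 0 in the 3 control libraries. Those 6 values lie near the level of 3 read pairs (0.105 to 0.245 CPM, depending on the library), so no fold change is given. Over all 24736 genes in the tables, 0 genes reached 3 read pairs in all 6 stress-exposed libraries while at 0 in all 3 control libraries, and 0 showed the opposite pattern.

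The precision of the comparison depended on the level of the transcript. The 95% interval of the log2 fold change lay within a 2-fold change in either direction for 48.5% of genes tested. That share was 0.364% below 1 CPM, 51.4% between 1 and 10 CPM, 85.7% between 10 and 100 CPM, 84.1% between 100 and 1000 CPM and 63.6% at 1000 CPM or more. For the abundant maternal transcripts, a difference of more than 2-fold thus lay outside the interval in most cases, while for weakly expressed genes such differences were not detectable with these libraries. Gdf9, the oocyte-secreted growth factor, averaged 12829 ± 2522 CPM in stress-exposed (SD, n = 6) and 12538 ± 2791 CPM in control oocytes (SD, n = 3). The interval of its log2 fold change, 0.03, ran from -0.60 to 0.66. Zbed3, a component of the subcortical maternal complex, averaged 46481 ± 4371 CPM in stress-exposed and 41748 ± 7222 CPM in control oocytes, with an interval of -0.47 to 0.78. The other genes of the 10 with the highest counts included H1foo, the oocyte linker histone, Spin1, a maternal chromatin reader, and Zfp57, which protects imprinted methylation. All 10 had a log2 fold change between -0.04 and 0.22.

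In 77 genes (0.554% of those tested) all 6 stress-exposed libraries lay above all 3 control libraries, and in 132 genes (0.95%) all 6 lay below. The median log2 fold change was 0.76 in the higher set and -0.77 in the lower set. The 12 genes of smallest p in each direction, among those not overlapping and at a mean of at least 1 CPM in the higher condition, make up a set of 24 genes, of which 23 are described next. They were picked by their values in these libraries, so the values describe them and are no test of the stress-exposed group, and none of them passed adjustment over all genes.

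**Figure D1:**
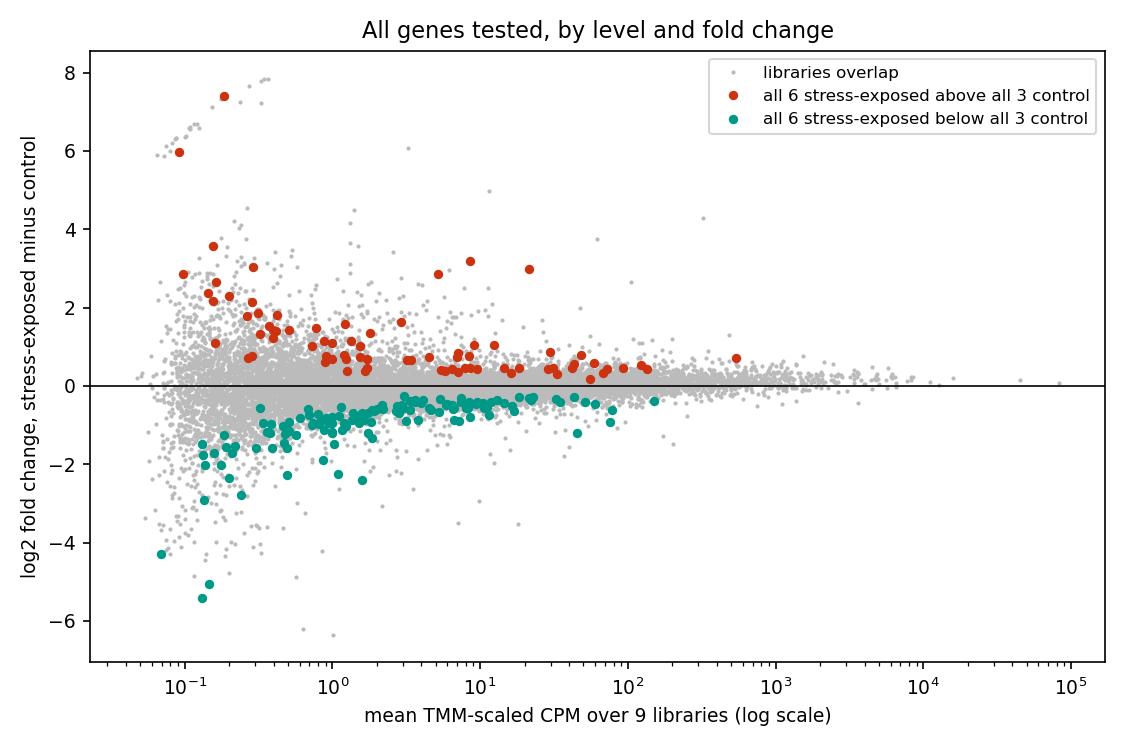
Each point is 1 of 13890 genes, with its mean CPM over 9 libraries on a log axis and the log2 fold change of stress-exposed minus control oocytes. The 77 genes above and 132 genes below the control range (coloured) are spread over all levels up to about 1000 CPM, and the spread of fold changes is widest below 1 CPM.

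Among genes of retinoid and lipid handling, Stra6l, a receptor for retinol-binding protein, had the smallest p. It stood at 32.0, 30.1 and 20.2 CPM in stress, 30.2, 36.0 and 40.6 CPM in KYZY and 82.5, 88.3 and 45.9 CPM in control oocytes. Every stress-exposed library was below every control library, with KYZY 3 closest to control 3. The log2 fold change was -1.21 (interval -1.73 to -0.69), -1.40 in stress and -1.02 in KYZY. Acsl4, which activates arachidonic acid for phospholipid synthesis, stood at 29.9, 28.2 and 41.1 CPM in stress, 26.3, 56.2 and 29.8 CPM in KYZY and 14.3, 17.7 and 25.4 CPM in control oocytes, and KYZY 1 lay just above control 3. Its log2 fold change was 0.88 (interval 0.23 to 1.53).

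The higher set included scaffolds of the cytoskeleton and of signalling. Akap12, an anchor of protein kinases A and C at the cell cortex, stood at 59.6, 55.0 and 65.4 CPM in stress, 49.7, 60.3 and 45.8 CPM in KYZY and 31.5, 25.4 and 40.1 CPM in control oocytes. Its log2 fold change was 0.79 (interval 0.36 to 1.21), and KYZY minus stress was -0.21 (interval -0.68 to 0.26). Abl2, a tyrosine kinase that remodels actin, had control values of 32.4, 33.4 and 32.9 CPM, below the 6 stress-exposed values of 40.3 to 60.9 CPM (median 48.3). Kank1, which links cortical adhesions to microtubules and actin, stood at 0.948 to 2.85 CPM in stress-exposed and 0.258 to 0.690 CPM in control oocytes. Grb7, an adaptor of receptor tyrosine kinases, had the largest log2 fold change of the 24 genes, 2.85 (interval 0.92 to 4.77), and 4.45 without control 3. It stood at 4.51, 7.90 and 9.14 CPM in stress, 8.51, 10.9 and 2.37 CPM in KYZY and 0.331, 0.334 and 2.34 CPM in control oocytes, so KYZY 3 and control 3 nearly met. Fam83d, which brings a kinase to the spindle, stood at 7.26 to 13.2 CPM in stress-exposed and 4.91 to 7.04 CPM in control oocytes.

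Ica1l, a membrane-bending protein of secretory vesicles, stood at 16.2, 20.6 and 15.8 CPM in stress, 11.2, 17.1 and 9.35 CPM in KYZY and 5.21, 7.43 and 8.75 CPM in control oocytes, with a log2 fold change of 1.06 (interval 0.49 to 1.62). Qsox1, which forms disulfide bonds in secreted proteins, stood at 6.22 to 11.3 CPM in stress-exposed and 4.05 to 5.60 CPM in control oocytes. March4, a membrane-bound ubiquitin ligase, stood at 2.79 to 6.45 CPM in stress-exposed and 0.592 to 2.24 CPM in control oocytes. Its log2 fold change was 1.62, with 2.49 without control 3 and 2.61 without the 4 libraries. Pcx, the pyruvate carboxylase that feeds oxaloacetate into the tricarboxylic acid cycle, stood at 6.13, 5.26 and 5.35 CPM in stress, 3.79, 4.71 and 6.22 CPM in KYZY and 6.28, 14.8 and 7.46 CPM in control oocytes. The separation of Pcx rested on 6.22 CPM in KYZY 3 against 6.28 CPM in control 1. Rpl7l1, a nucleolar relative of a ribosomal protein, and Sp140, a chromatin reader of nuclear bodies, were the remaining higher genes, with log2 fold changes of 0.85 and 1.34.

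The other lower genes included calpain and endosome regulators. Cast encodes calpastatin, the inhibitor of the calcium-activated calpains, and stood at 0.319, 0.480 and 0.295 CPM in stress, 0.190, 2.06 and 1.02 CPM in KYZY and 2.22, 5.54 and 2.19 CPM in control oocytes. Its log2 fold change was -2.39 (interval -3.70 to -1.08), with -2.60 without control 3 and -3.79 without the 4 libraries. Rufy2, an effector of endosomal transport, stood at 5.61, 3.71 and 3.66 CPM in stress, 6.65 to 7.05 CPM in KYZY and 11.4, 11.4 and 7.87 CPM in control oocytes. KYZY minus stress was 0.67 on the log2 scale (interval 0.11 to 1.23). Of the 24 genes, Rufy2 alone had an interval of this difference that left out 0, with an adjusted p of 0.935 in edgeR's quasi-likelihood test over all genes. Over all genes, 553 of 13890 (3.98%) had an unadjusted p under 0.05 for this difference, so 1 of 24 is near that share. Zfp114, a zinc finger gene, stood at 0.233 to 0.368 CPM in stress, at 0.220, 0.490 and 1.51 CPM in KYZY and at 1.82 to 2.56 CPM in control oocytes. Cep68, which helps to hold centrosomes together, stood at 11.1 to 17.1 CPM in stress-exposed and 17.8 to 28.8 CPM in control oocytes. Mypn (myopalladin), R3hdml, Gabrr3, Il23a (a subunit of interleukin 23), 1300002E11Rik and 9230110C19Rik completed the set, with log2 fold changes from -1.89 to -0.55. Exons of Ica1l, Rufy2, Cast, Qsox1, Sp140 and Gabrr3 overlap a gene on the opposite strand in GENCODE M21, and those of 1300002E11Rik overlap Map3k13 on the same strand. The libraries carry no strand information, so reads of these pairs cannot be told apart.

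**Figure D2:**
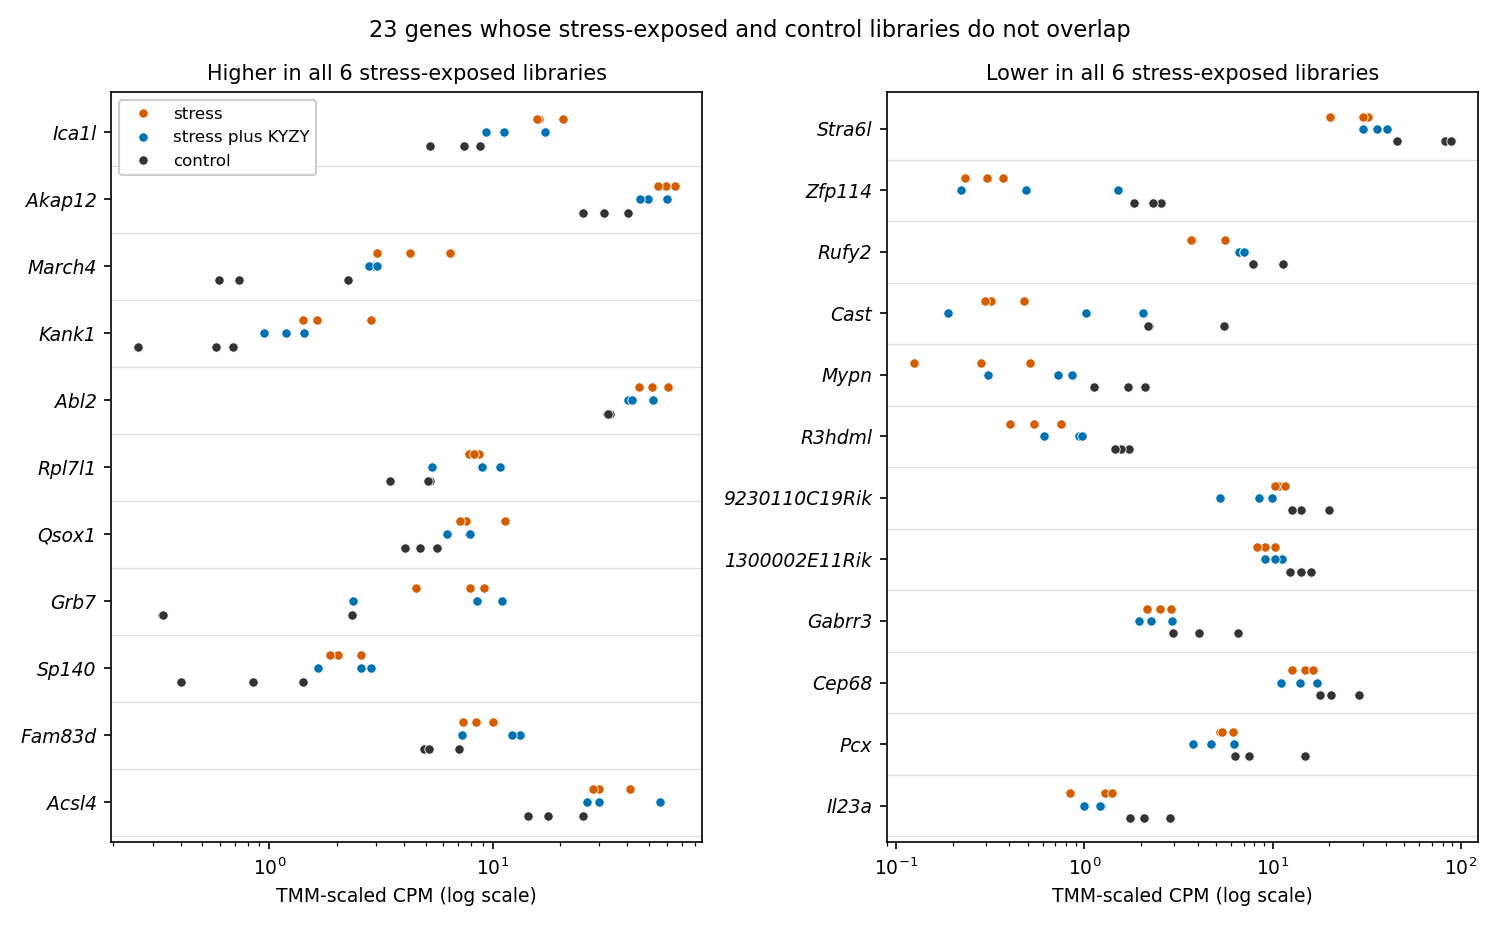
CPM on a log axis for 23 of the 24 genes, with 1 point per library and the stress, stress plus KYZY and control groups on separate lines. Gaps between stress-exposed and control points are narrow for Grb7 (2.37 CPM in KYZY 3, 2.34 CPM in control 3), Pcx and Gabrr3, and wider for Stra6l and Zfp114.

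Promoters were read from RefSeq on GRCm38.p6, where 17 of the 24 genes had an entry, for the glucocorticoid receptor hexamer AGAACA on either strand, in windows of 250 bases before to 50 after the start. The hexamer was in 2 of the 17 windows, Sp140 and Mypn, and in 12.6% of the 10804 promoters of tested genes that had an entry. The palindrome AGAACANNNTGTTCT was in 0 of the 17 and in 0 of the 10804. The cyclic AMP response element TGACGTCA was in 1 of the 17, that of 1300002E11Rik, against 3.19% of all. The heat shock pair GAANNTTC was in 1 of the 17, that of Sp140, against 5.90% of all. A match describes letters in a window and not a bound site. The 250 bases before the start are shown for the gene of smallest p in each direction that had an entry and for both genes with the hexamer, with the hexamer or its complement in capitals. The windows are chr1:60043123-60043372 (minus strand) for Ica1l, chr1:85600453-85600702 (plus strand) for Sp140, chr4:45848566-45848815 (plus strand, the first of 2 starts listed) for Stra6l and chr10:63203953-63204202 (minus strand) for Mypn.
Ica1l: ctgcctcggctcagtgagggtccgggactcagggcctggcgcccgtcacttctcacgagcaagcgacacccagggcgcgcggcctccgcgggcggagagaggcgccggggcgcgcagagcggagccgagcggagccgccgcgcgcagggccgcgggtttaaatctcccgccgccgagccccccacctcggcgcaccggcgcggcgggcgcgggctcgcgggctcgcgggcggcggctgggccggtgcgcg
Sp140: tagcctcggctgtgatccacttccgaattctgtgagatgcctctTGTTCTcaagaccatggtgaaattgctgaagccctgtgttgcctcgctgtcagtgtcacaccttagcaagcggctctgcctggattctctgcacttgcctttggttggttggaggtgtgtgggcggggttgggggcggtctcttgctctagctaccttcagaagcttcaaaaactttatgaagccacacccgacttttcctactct
Stra6l: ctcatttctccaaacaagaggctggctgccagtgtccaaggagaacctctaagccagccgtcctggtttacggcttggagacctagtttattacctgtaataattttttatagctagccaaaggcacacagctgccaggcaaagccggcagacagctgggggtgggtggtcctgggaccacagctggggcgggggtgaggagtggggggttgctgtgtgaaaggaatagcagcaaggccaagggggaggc
Mypn: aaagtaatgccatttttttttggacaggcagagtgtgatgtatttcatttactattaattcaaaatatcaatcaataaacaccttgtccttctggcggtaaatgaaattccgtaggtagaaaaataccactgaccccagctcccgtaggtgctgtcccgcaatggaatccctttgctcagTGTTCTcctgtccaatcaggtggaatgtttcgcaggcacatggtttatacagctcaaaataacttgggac
The GC content of these windows was 80.4% for Ica1l, 52.4% for Sp140, 56.4% for Stra6l and 41.2% for Mypn, and the windows of Ica1l and Stra6l hold no hexamer.

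KYZY values were also read for the 10 genes that earlier work on these data had placed at the smallest p in stress against control. The stress and control libraries chose them, and the same control libraries enter KYZY against control. A shared sign or an interval that leaves out 0 is therefore no test of persistence. Over all genes, 121 (0.871%) were higher and 259 (1.86%) lower in KYZY at an unadjusted p under 0.05 of edgeR's quasi-likelihood test. The share of all genes with the same sign in both groups was not counted. Stra6l, Ica1l and Rufy2, described above, and Slc4a10 had the sign of stress in KYZY with an interval that left out 0. Slco4c1, Rmnd1, Plekhb1 and Wfs1 also had the sign of stress, with an interval that included 0, and Pdha1 and Chd2 had the opposite sign. Slc4a10, a sodium bicarbonate transporter that regulates pH, stood at 2.01, 2.86 and 3.04 CPM in stress, 2.94, 5.34 and 2.88 CPM in KYZY and 9.09, 12.3 and 5.20 CPM in control oocytes, with KYZY 2 above control 3. Its log2 fold change was -1.75 in stress and -1.25 (interval -2.09 to -0.42) in KYZY. For all stress-exposed oocytes it was -1.50, and -1.98 without the 4 libraries, which leaves out control 3 and KYZY 2.

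For the other 6 genes the interval of KYZY against control included 0. Pdha1, the catalytic subunit gene of pyruvate dehydrogenase on the X chromosome, stood at 44.3, 34.6 and 45.5 CPM in stress, 85.1, 95.6 and 90.4 CPM in KYZY and 98.2, 79.4 and 67.9 CPM in control oocytes. The stress libraries were below all others, and the KYZY libraries lay within the control range. Its log2 fold change was -0.98 in stress and 0.14 (interval -0.31 to 0.59) in KYZY. Chd2, a chromatin remodeller, stood at 1.26, 1.07 and 0.574 CPM in stress, 4.26, 3.86 and 2.80 CPM in KYZY and 2.86, 3.74 and 3.39 CPM in control oocytes, with log2 fold changes of -1.78 in stress and 0.13 in KYZY. Wfs1, which encodes wolframin of the endoplasmic reticulum, stood at 117, 127 and 118 CPM in stress, 77.6, 69.5 and 66.5 CPM in KYZY and 81.4, 60.9 and 54.4 CPM in control oocytes, with log2 fold changes of 0.88 and 0.12 for stress and KYZY. Slco4c1, an organic anion transporter, had log2 fold changes of 2.16 in stress and 0.60 in KYZY. Rmnd1, a factor of mitochondrial translation, had -2.31 in stress and -0.74 in KYZY, and Plekhb1, with 1.56, 1.79 and 3.12 CPM in stress, 8.91, 3.95 and 5.24 CPM in KYZY and 8.23, 11.5 and 6.12 CPM in control oocytes, had -0.51 (interval -1.37 to 0.35) in KYZY. Plekhb1 for all stress-exposed oocytes was at -1.26, and at -1.33 without the 4 libraries. Exons of Chd2 overlap 1810026B05Rik on the same strand in GENCODE M21. Those of Chd2, Pdha1 and Rmnd1 also overlap a gene on the opposite strand, so reads of these pairs cannot be told apart.

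**Figure D3:**
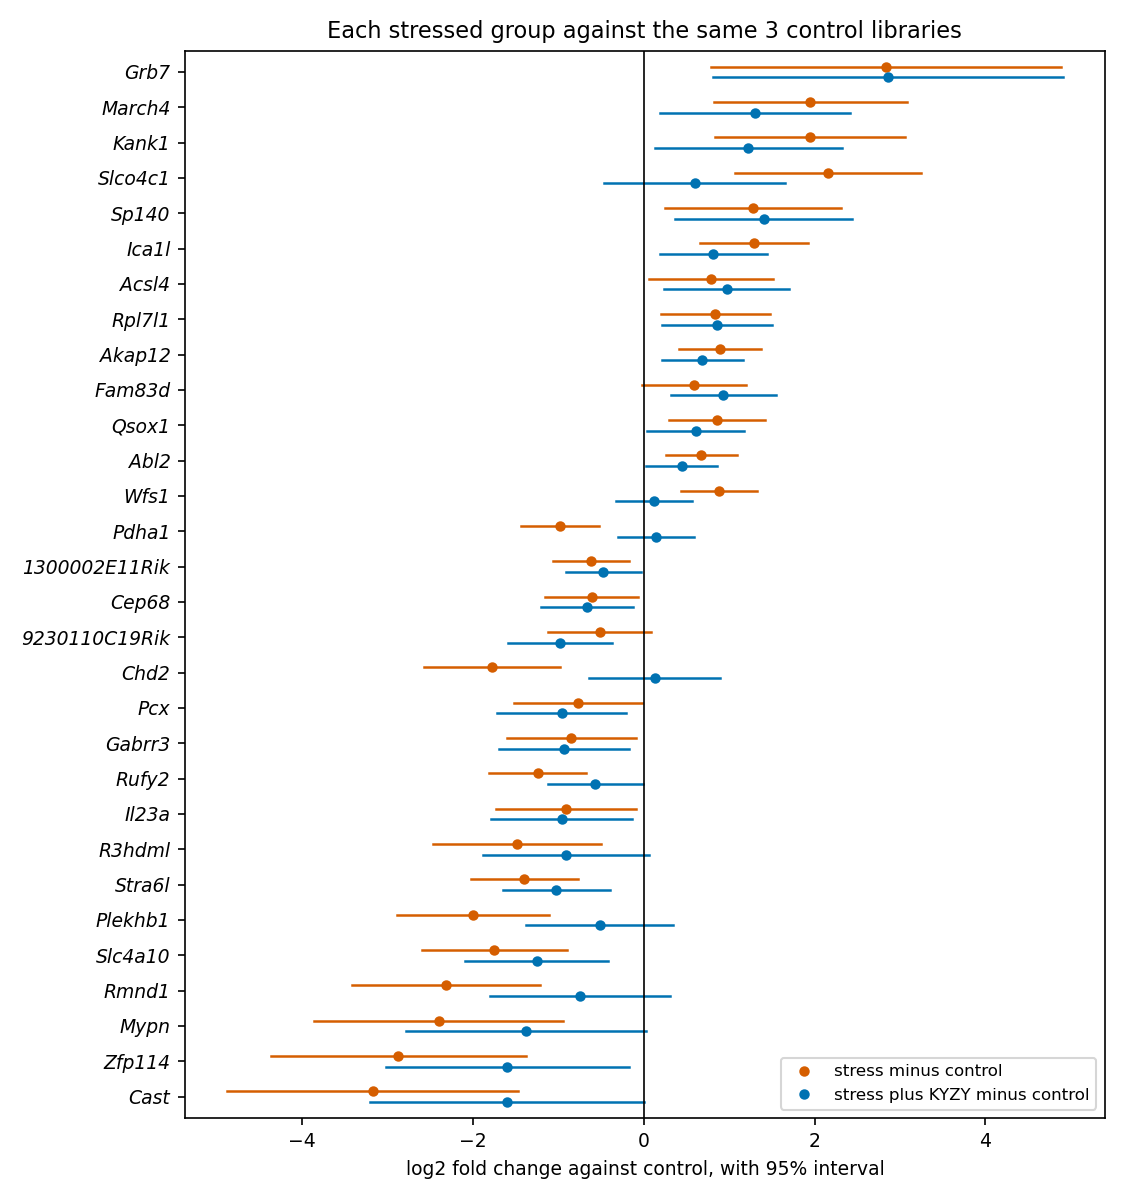
Log2 fold change against the same 3 control libraries with its 95% interval, for stress and for stress plus KYZY, in the same 23 genes and the 10 genes of earlier work (3 are in both sets). Pdha1, Chd2 and Wfs1, which were picked for a small unadjusted p in stress and did not pass adjustment there, have an interval that leaves out 0 in stress and one that includes 0 in KYZY, while the points of Grb7, Rpl7l1 and Cep68 nearly coincide.

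Pathways of oocyte function and stress response were described with 29 gene lists, of which 1270 of 1383 genes were tested. None of the 1270 passed adjustment. In 4 members all 6 stress-exposed libraries lay above and in 11 all lay below the control range. That was 1.18% of the members tested, beside 77 and 132 of the 13890 genes tested, and 18 lists had 0 such members. For 22 of the 29 lists the median log2 fold change took the opposite sign when some single library was left out. Over all genes tested, 6446 of 13890 log2 fold changes were positive, with a median of -0.03 (-0.07 to 0.04 with each library left out). The median was -0.06 for genes below 1 CPM, 0.09 for genes at 100 to 1000 CPM and 0.16 for those at 1000 CPM or more.

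Among lists of meiosis and the maternal store, 43 of 60 genes of meiotic maturation and spindle had a positive log2 fold change, with a median of 0.12 (0.01 to 0.19 with each library left out). The median was 0.13 over 31 cohesin and segregation genes (0.06 to 0.35) and 0.10 over 53 genes of maternal mRNA translation and decay (0.04 to 0.16). With voom it was 0.007 for meiotic maturation and spindle and 0.20 for cohesin and segregation. Fmn2, the actin nucleator that moves the meiotic spindle, stood at 57.0 to 81.6 CPM in stress-exposed and 26.6 to 56.3 CPM in control oocytes and was above control in all 6 libraries. Rad21, the mitotic cohesin kleisin, stood at 15.2 to 20.8 CPM in stress-exposed and 13.4 to 14.2 CPM in control oocytes. Aurkc, the meiotic Aurora kinase, stood at 208, 219 and 67.9 CPM in stress, 244, 245 and 90.9 CPM in KYZY and 76.4, 65.6 and 96.2 CPM in control oocytes, so stress 3 and KYZY 3 were within the control range. Its log2 fold change was 1.17 (SE 0.44, unadjusted p = 0.0237, adjusted p of edgeR's test 0.99955). Without the 4 libraries, which leaves out stress 3 and KYZY 3, the log2 fold change of Aurkc was 1.70, with 1 KYZY library left. Of 46 maternal-effect genes 29 had a positive log2 fold change, with a median of 0.08 (-0.02 to 0.23 with each library left out, and -0.02 without control 3). Oosp2, a secreted oocyte protein, had a log2 fold change of -1.07 (SE 0.37), with control 3 within the stress-exposed range. It was -1.15 without the 4 libraries, which leaves out control 3.

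The median over 38 genes of the glucocorticoid receptor, its chaperones and response genes was 0.08 (0.03 to 0.36 with each library left out, the highest without control 3), with -0.09 in stress and 0.29 in KYZY. Nr3c1 itself stood at 4.19 to 7.80 CPM in stress-exposed and 5.38 to 6.98 CPM in control oocytes. Fkbp5, a receptor co-chaperone that glucocorticoids induce in many tissues, stood at 539 to 847 CPM in stress-exposed and 467 to 711 CPM in control oocytes. The median was 0.03 over 36 heat shock proteins (-0.05 to 0.09 with each library left out) and 0.08 over 41 genes of the unfolded protein response (0.01 to 0.10). Over 47 antioxidant genes it was -0.04 (-0.15 to 0.28, the highest without control 3), with -0.34 in stress and 0.30 in KYZY. Nqo1, a quinone reductase, stood at 2.29 to 3.59 CPM in stress-exposed and 3.67 to 5.37 CPM in control oocytes, and Gsta4, which detoxifies lipid aldehydes, at 6.83 to 10.7 CPM in stress-exposed and 12.1 to 13.6 CPM in control oocytes. Over 65 genes of DNA damage and repair the median was -0.11 (-0.14 to -0.01 with each library left out). Trp53bp1, a sensor of double-strand breaks, stood at 110 to 156 CPM in stress-exposed and 158 to 192 CPM in control oocytes, and Xpc and Ercc4 of nucleotide excision repair also lay below the control range in all 6 libraries.

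Oxidative phosphorylation and cytosolic ribosomal genes had medians of opposite sign in the stress and KYZY groups, a difference that was not tested. Over 78 nuclear-encoded genes of oxidative phosphorylation the median was -0.07 (-0.28 to 0.40 with each library left out, the highest without control 3), with -0.40 in stress and 0.28 in KYZY. Over 83 cytosolic ribosomal proteins it was 0.10, with -0.66 in stress and 0.92 in KYZY, and 1.25 without control 3. The cumulus and granulosa markers had the same order, with a median of 0.57, -0.15 in stress and 1.73 in KYZY, and 3.83 without control 3. With voom the median was 0.13 for antioxidant genes, 0.16 for oxidative phosphorylation and -0.06 for maternal-effect genes, each opposite in sign to the value of edgeR. With the cumulus marker score as a covariate, the medians were -0.21 for oxidative phosphorylation and -0.09 for cytosolic ribosomal proteins. Without the 4 libraries the medians were 0.01 for oxidative phosphorylation and 0.30 for cytosolic ribosomal proteins. Over 78 mitochondrial ribosomal proteins 57 were lower, with a median of -0.14 (-0.18 to -0.07 with each library left out). Mrps22 stood at 4.35 to 7.07 CPM in stress-exposed and 7.63 to 8.16 CPM in control oocytes, and Mrpl47 at 17.0 to 22.5 CPM in stress-exposed and 23.5 to 26.0 CPM in control oocytes. In bulk samples, fewer cells of a type and less RNA per cell cannot be told apart.

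**Figure D4:**
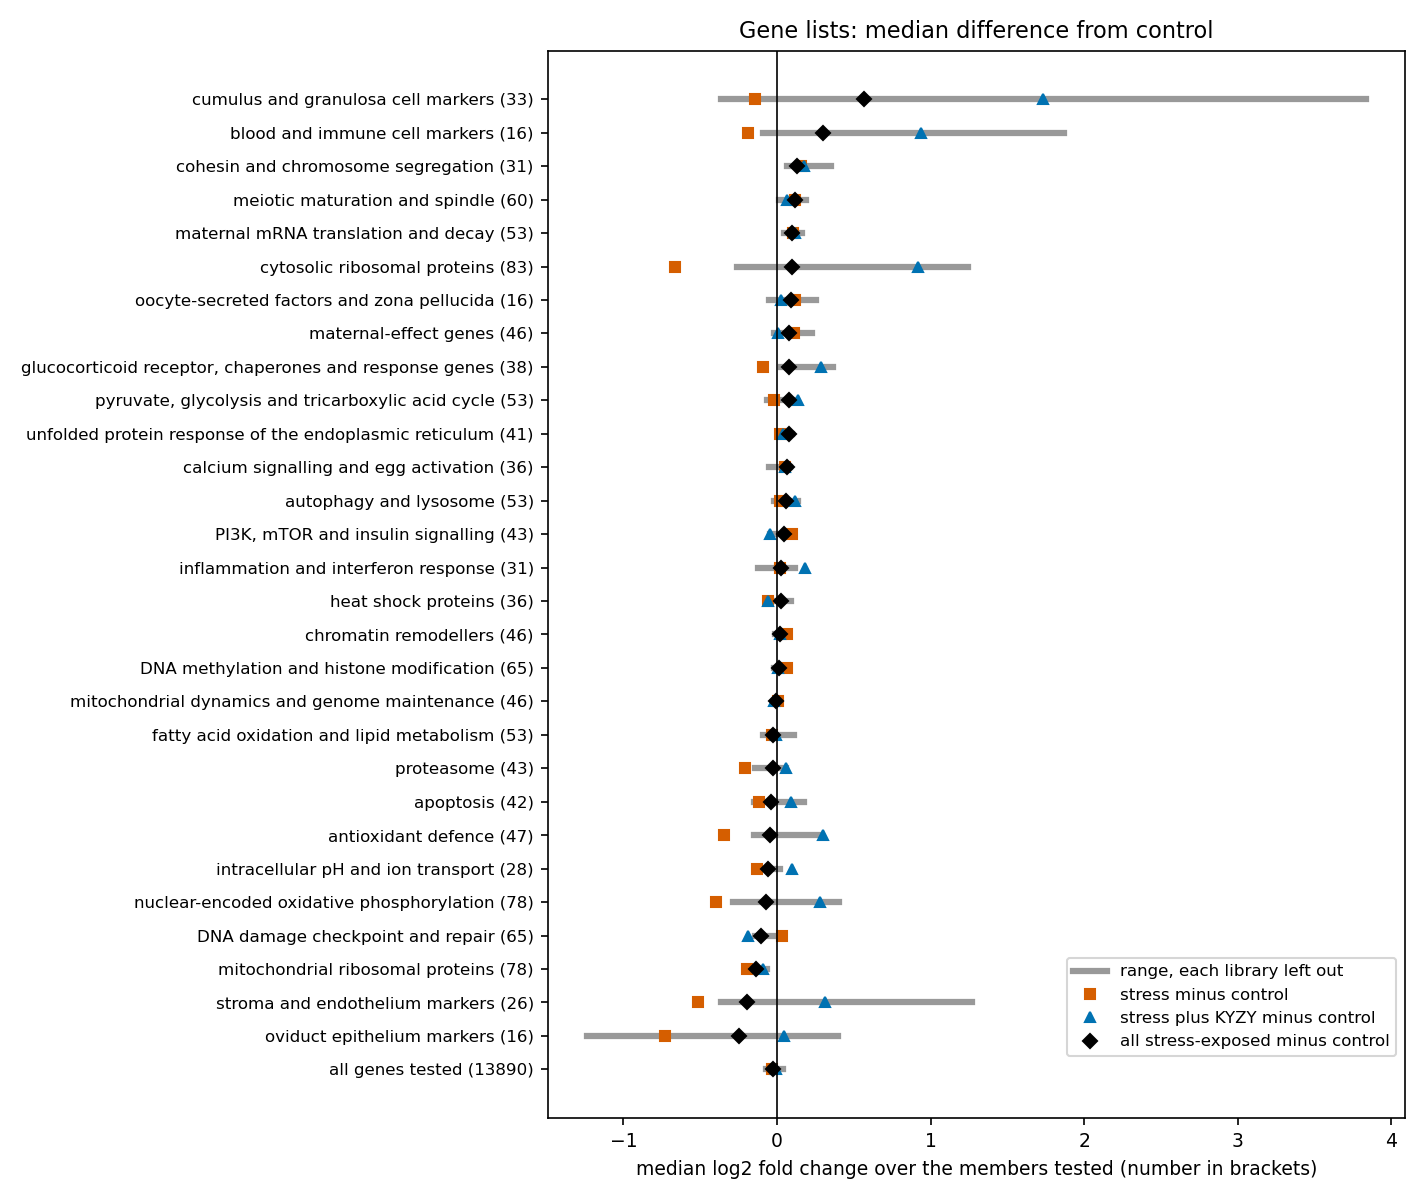
Median log2 fold change over the tested members of each list, for all stress-exposed, stress and stress plus KYZY oocytes against control, with a grey bar from the lowest to the highest median when each library is left out. Most medians lie within 0.15 of 0, and the widest bars belong to markers of cumulus and other cells and to cytosolic ribosomal proteins.

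Control 3 decided more calls than any other library. With it left out, 7 of 14318 genes tested were called by edgeR's quasi-likelihood test, of which 2, Kcng2 and Vwa5a, were called in both stressed groups. Leaving out any of the other 8 libraries gave 0. The 7 genes are named because their number is small and were chosen after their values were seen. Kcng2, a modifying subunit of potassium channels, stood at 15.5, 19.5 and 14.3 CPM in stress, 12.8, 26.0 and 9.59 CPM in KYZY and 0, 0 and 11.5 CPM in control oocytes. Vwa5a stood at 0.829 to 2.07 CPM in stress-exposed oocytes and at 0, 0 and 2.03 CPM in control oocytes. In both genes control 3 lay among the stressed libraries. St3gal5, the enzyme that makes the ganglioside GM3, stood at 22.7, 30.1 and 20.6 CPM in stress, 26.7, 28.6 and 18.2 CPM in KYZY and 97.6, 96.9 and 20.1 CPM in control oocytes. Golga5, a golgin of the Golgi rim, stood at 93.7 to 188 CPM in stress-exposed and 27.0, 24.3 and 151 CPM in control oocytes. Usp46, a deubiquitinase, stood at 457 to 826 CPM in stress-exposed and 121, 107 and 507 CPM in control oocytes. Dydc2 stood at 0.163 to 0.761 CPM in stress-exposed and 3.72, 3.54 and 0.156 CPM in control oocytes. Prr18 stood at 18.2, 20.3 and 6.84 CPM in stress, at 0.253, 0.235 and 0.163 CPM in KYZY and at 17.2, 24.7 and 0.0781 CPM in control oocytes, so control 3 lay with the KYZY libraries and control 1 and 2 with stress 1 and 2. For each of the 7 genes the control mice fell at separate levels, so the call rests on control 1 and 2.

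**Figure D5:**
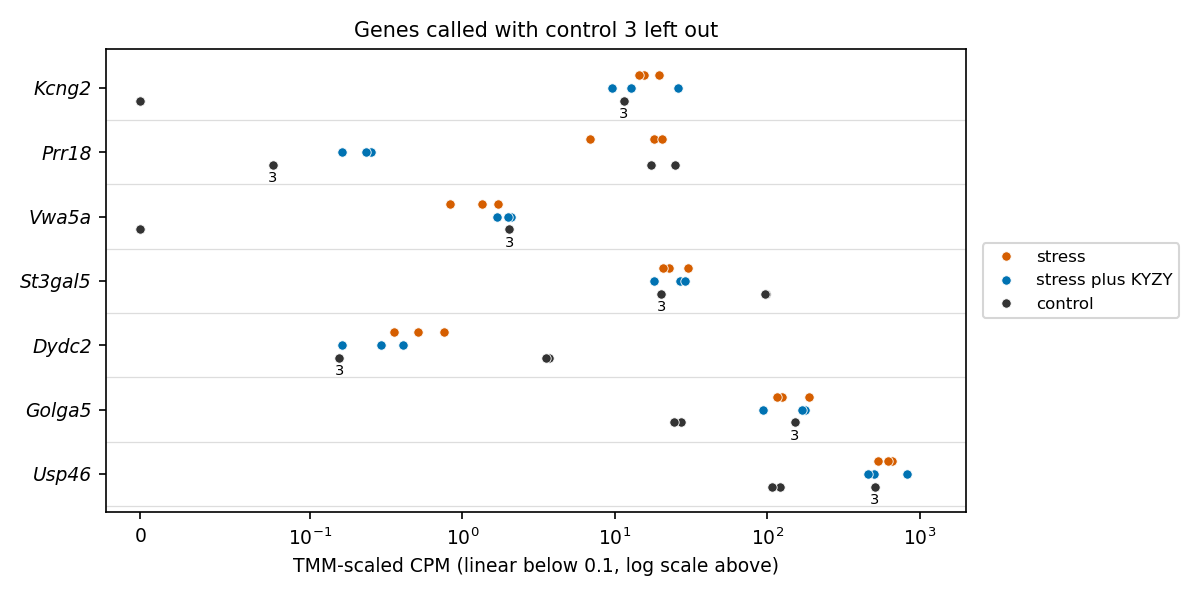
CPM of the 7 genes called without control 3, with 1 point per library on an axis that is linear below 0.1 CPM and logarithmic above, and control 3 marked with its number. Control 3 lies at the level of stress-exposed libraries in Kcng2, Vwa5a, St3gal5, Golga5 and Usp46 and apart from control 1 and 2 in all 7.

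Without the 4 libraries of high marker score, 122 genes were called in all stress-exposed against control (50 higher, 72 lower) and 31 in both stressed groups (19 higher, 12 lower). That comparison tested 14220 genes. It holds 2 control, 2 stress and 1 KYZY library with 2 residual degrees of freedom, and the lone KYZY library is assumed to vary like the others. Control 3, which it leaves out, lay inside the range of the 6 stressed libraries in 105 of the 122 genes, and 9 of the 122 had no overlap over all 9 libraries. How often control 3 fell inside that range over all genes tested was not counted, so the 105 have no background to be read against. Among all 13890 genes tested with 9 libraries, 77 had no overlap as higher and 132 as lower genes. The called genes were picked for a difference from control 1 and 2, so neither count is a test. Manba, a lysosomal mannosidase, stood at 26.5, 25.0 and 28.3 CPM in stress, 25.4, 64.4 and 11.9 CPM in KYZY and 0.182 and 0.248 CPM in control 1 and 2, with control 3 just below KYZY 3. Tnc, the matrix protein tenascin C, stood at 7.11, 5.39 and 18.3 CPM in stress, 5.15, 28.8 and 8.65 CPM in KYZY and 0.215, 0.210 and 3.54 CPM in control oocytes. Hif3a, a hypoxia-inducible factor subunit, stood at 18.9, 22.4 and 9.48 CPM in stress, 19.8, 10.7 and 7.45 CPM in KYZY and 2.68, 2.61 and 7.53 CPM in control oocytes. These 3 genes were chosen after their values were seen. The 24 genes were picked for a small p and no overlap in libraries that include those left here. Calls among them are therefore no separate test, and only fold changes are given. In that comparison the log2 fold change was 4.46 for Grb7 and -1.46 for Stra6l. Genes named for the smallest p of their list or in stress against control were also picked in these libraries. Among those, the log2 fold change of Npc1 was 0.70 over all 9 libraries and 1.04 in that comparison. It was -0.91 and -1.33 for Itpr2, and -1.85 (interval -4.57 to 0.86) and -4.33 for Elf3. Elf3 stood at 7.98 CPM in KYZY 3, within its control range of 6.10 to 8.99 CPM. The values of Aurkc, Oosp2, Slc4a10 and Plekhb1 are given above. Npc1, Itpr2, Elf3 and these genes are shown because of their values in that comparison, so their fold changes there are no separate test.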

How the data were processed

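The authors deposited 1 table per library of whole-number estimated counts per gene symbol, not normalized. The unit was inferred from those values and from the tools, as no header gives one. Per the submitters' processing notes, the software was HISAT2, StringTie, DESeq2, Trim Galore and bcl2fastq 2.20, and the builds GRCm38 and mm10; settings are not given in the sources used here. Values of 4 and 8 were over-represented, so 1 read pair was taken as about 4 units and 3 read pairs as 12 counts. Without molecular identifiers, intervals and floors cover counting error and the spread between mice, not amplification.

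Of 24736 symbols, 24076 matched RefSeq on GRCm38.p6. After TMM scaling, filterByExpr (minimum count 10, total 15) kept 13890 genes and 99.9832% of counts. In edgeR 4.0.16 (R 4.3.3) all 9 libraries entered a robust quasi-likelihood fit with a mean for each group and 6 residual degrees of freedom, and a common biological coefficient of variation of 0.611. Contrasts were the average of stress and stress plus KYZY minus control, each stressed group minus control, and KYZY minus stress, all 2-sided and adjusted by Benjamini-Hochberg over all genes. Intervals are 95% intervals, unadjusted. Tested on simulated data with 50 genes changed per fold, all stress-exposed against control recovered 4%, 40%, 58% and 72% of genes changed 2, 4, 8 and 16-fold with 4 false calls among 13690, and the test of both groups recovered 2%, 22%, 50% and 62% with 0 false calls. Same-numbered stress and control libraries deviated together across genes in 3 of 3 pairs (r = 0.16 to 0.38), and the replicate block was run as an alternative. The labels give no pairing. Control 3 and stress 3 both had a high cumulus marker score, and control 1, control 2, stress 1 and stress 2 a low one. Shared number and shared marker score were not told apart. Alternatives used DESeq2 1.42.0, limma 3.58.1 (voom), other filters and left-out libraries.

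Members, gene lists, alternatives and named genes were chosen with earlier results of these data known. Named genes were those called, the 12 of smallest p in each direction among genes whose stress-exposed and control libraries did not overlap, at 1 CPM or more in the higher condition, the member of highest mean CPM and of smallest p in each list, the 10 genes of earlier work and the 10 genes of highest mean CPM. Nr3c1, Fkbp5, Fmn2, Gsta4, Trp53bp1, Xpc, Ercc4 and Mrpl47 fall outside that rule and were chosen after their values were seen. Of the 24 genes of smallest p so chosen, 1 is not reported here.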

Additional observations from a re-analysis of the deposited data

Results flagged for a closer look

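Among 92 genes looked at in the 6 stress-exposed libraries, 11 had a highest library set far from the other 5 by Dixon's test at the 95% level, which chance alone flags in about 1 of 20 groups. Stress 3 was the high library for Mdm4 (7166 CPM, next 3943), Hmgcs1 of sterol synthesis (1405 CPM, next 750.0), the endoplasmic reticulum protein Creld2 (1317 CPM, next 875) and the co-chaperone Dnaja1 (1231 CPM, next 896). KYZY 2 was the high library for Runx2 (8.08 CPM, next 3.02), Slc4a10 (5.34 CPM, next 3.04) and Cebpb (1.13 CPM, next 0.490). KYZY 3 was the high library for Zfp114 (1.51 CPM, next 0.490). Stress 1 was the high library for Qsox1 (11.3 CPM, next 7.87). Stress 2 was the high library for Kank1 (2.85 CPM, next 1.63) and for the haemoglobin gene Hba-a1 (1.64 CPM, with the other 5 at 0). The cumulus marker score was high in stress 3, KYZY 2 and KYZY 3 and low in stress 1 and stress 2. Its relation to these values was not tested.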

How the results depend on the processing

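Calls of all stress-exposed against control numbered 0 under DESeq2's size factors, voom, looser and stricter filters, counts divided by 4, 1 mean for the 6 libraries, the marker score as a covariate and the replicate block, 6 with DESeq2's Wald test, 0 to 7 with each library left out (7 without control 3) and 122 without the 4 libraries of high marker score. Stress against control gave 21, 0 to 2 and 148 under the last 3, stress plus KYZY 3, 0 to 3 and 119, with 1 under the marker covariate, and both groups together 0, 0 to 2 and 31. At an unadjusted p under 0.05, all stress-exposed gave 340 genes, 780 with voom, 526 with the marker covariate, 166 to 945 with each library left out (945 without control 3, 166 without control 2) and 1311 without the 4. Both groups gave 66, 183 with voom, 34 to 340 with each library left out and 353 without the 4. Genes outside the control range numbered 209, 288 to 1343 with each library left out and 3047 without the 4, where fewer libraries make separation easier. Of the 340 genes 35.0% were higher, against 53.1% (216 higher, 191 lower) with DESeq2's Wald test.

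The median of cumulus and granulosa markers was 1.86 with voom and -0.37 to 3.83 with each library left out, that of blood and immune markers 0.87 with voom and -0.09 to 1.87, that of oviduct markers -1.23 to 0.40, that of stroma and endothelium markers -0.37 to 1.27, and that of inflammation genes -0.19 without the 4. The causes were not tested. The labels name no pairing. Across genes, the deviations from the group means correlated at an r over 0.1 in 7 of 9 same-numbered pairs (up to 0.64), among them the 3 of stress and control, but not in KYZY 2 and control 2 (-0.10) or KYZY 2 and stress 2 (-0.20), and not every library correlated best with its own number. In pairs of different number 5 of 18 were over 0.1. The cumulus marker score was high in control 3, stress 3, KYZY 2 and KYZY 3 and low in the others, and number and score were not told apart. The replicate block gave 0 calls in every comparison. Below 1 CPM the comparison was least precise, with 0.364% of intervals within a 2-fold change in either direction. The part of low depth per transcript, with 1 read pair worth about 4 units, was not tested.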
